A study of Mus musculus with 70 samples.

Results

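Slc7a11, Gclc, Gclm, Gsr, Txnrd1, Prdx1, Srxn1, Nqo1, Hmox1 and Osgin1 are genes of the NRF2 and glutathione defence against oxidants, and their RNA was followed in mouse lungs after inhaled silica. They were taken by gene symbol, in a choice made with earlier results of these data known, and are 10 of the 24420 genes of the deposited count table. All 10 passed the filter on low counts in every comparison.

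The series measured total RNA, depleted of ribosomal RNA, by sequencing in 70 male mice, 1 library from a piece of lung of each. Homozygous wildtype (Pds+/+) and homozygous knockout (Pds-/-) mice for Slc26a4, the gene of the anion exchanger pendrin, came from matings of heterozygous 129S-Slc26a4tm1Erg/AjgJ mice, so the knockout is in every cell of the body. At about 3 months of age they breathed air or Min-U-Sil5 silica, a fine crystalline silica dust, at 15 mg/m3 in a whole-body chamber for 6 hours a day on 4 days, and the lungs were collected after 1 day, after 3 months or after 9 months. Genotype, exposure and time give 12 groups, of 6 mice in 10 groups and 5 mice in both wildtype groups of 9 months. The mice shared no treatment other than the chamber exposure, and the p-values below measure the spread between these mice, with that of library preparation included.

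NRF2 is a transcription factor that the adaptor protein KEAP1 marks for destruction in resting cells. Oxidants and electrophiles modify KEAP1, NRF2 then accumulates, pairs with a small MAF protein and binds antioxidant response elements beside its target genes. Those targets import cystine, build and recycle glutathione, run the thioredoxin system and clear quinones and heme, and in lung they are known from airway epithelium and macrophages that meet inhaled oxidants. Slc7a11 is also a known target of ATF4, the transcription factor of the amino acid stress response.

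Libraries held 802478 to 5596316 counts, with a median of 2183480. Slc26a4 checked the genotype labels: at 1 day it lay at 4.22 to 12.6 normalised CPM (a gene's counts relative to all counts of its library, scaled between libraries) in wildtype air lungs and 0.982 to 3.24 in knockout air lungs, and at 3 months at 9.08 to 15.0 against 1.06 to 3.08. In silica lungs it lay at 24.8 to 69.6 against 6.01 to 20.5 at 1 day, 43.0 to 73.8 against 3.38 to 36.4 at 3 months and 20.5 to 79.1 against 10.3 to 13.8 at 9 months, and the 9-month air ranges, 6.42 to 74.2 and 1.32 to 51.7, overlapped. A count per gene does not show which exons the reads cover, so it says nothing of the deleted part itself. Summed markers of alveolar type 2 cells were 9220 to 13570 CPM in all groups, as a check of the tissue. Of the 9-month air mice, 3 stood apart from the others: wildtype replicate 5 and knockout replicates 4 and 5 had Chil3, a chitinase-like protein of macrophages, at 8011, 6583 and 2997 CPM, against 673 to 1083 in the other 8 air mice of that age. The 11 silica mice of that age had 630 to 2472 CPM of Chil3, of which none was left out. The 9-month tests are given with and without the 3 air mice, a choice made after their values were seen that removes high values from the air side only.

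RefSeq promoter windows (build GRCm38.p6, 250 bases before to 50 bases after the start site) were at hand for 7 of the 10 genes. Printed are 4, that of Slc7a11 and those of the 3 members with a TGANTCAGC match, so the 4 do not stand for all 7. Capitals mark matches, on either strand, to the antioxidant response element core TGACNNNGC, to the related NRF2-small MAF form TGANTCAGC, which can overlap it, and to the ATF4 composite core TGATGCAA. The windows are chr3:50443564-50443863 on the minus strand for Slc7a11, chr2:152105274-152105573 on the plus strand for Srxn1, chr4:116685349-116685648 on the plus strand for Prdx1 and chr8:119436897-119437196 on the plus strand for Osgin1.
Slc7a11: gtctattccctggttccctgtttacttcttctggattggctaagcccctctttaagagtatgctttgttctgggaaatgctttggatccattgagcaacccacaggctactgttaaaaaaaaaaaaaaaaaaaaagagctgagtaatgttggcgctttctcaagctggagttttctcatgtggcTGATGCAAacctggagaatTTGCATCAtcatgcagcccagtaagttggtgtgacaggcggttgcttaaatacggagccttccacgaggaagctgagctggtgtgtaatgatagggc
Srxn1: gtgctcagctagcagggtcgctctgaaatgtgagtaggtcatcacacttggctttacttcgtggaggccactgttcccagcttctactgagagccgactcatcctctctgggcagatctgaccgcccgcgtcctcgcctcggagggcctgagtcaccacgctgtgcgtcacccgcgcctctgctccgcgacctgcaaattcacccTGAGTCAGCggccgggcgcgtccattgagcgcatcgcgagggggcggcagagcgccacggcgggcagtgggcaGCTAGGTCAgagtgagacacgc
Prdx1: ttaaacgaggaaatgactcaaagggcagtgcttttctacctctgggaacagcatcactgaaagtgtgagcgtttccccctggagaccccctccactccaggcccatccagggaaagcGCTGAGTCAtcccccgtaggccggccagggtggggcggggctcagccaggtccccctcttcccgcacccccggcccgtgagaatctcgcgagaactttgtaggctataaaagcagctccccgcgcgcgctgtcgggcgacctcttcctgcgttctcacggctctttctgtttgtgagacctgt
Osgin1: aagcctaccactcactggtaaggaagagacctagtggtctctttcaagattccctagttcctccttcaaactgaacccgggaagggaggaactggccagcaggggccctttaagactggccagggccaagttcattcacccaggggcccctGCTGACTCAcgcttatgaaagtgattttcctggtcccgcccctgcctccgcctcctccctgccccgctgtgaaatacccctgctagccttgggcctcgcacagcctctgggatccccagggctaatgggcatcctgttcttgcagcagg
The Slc7a11 window held 2 matches to the ATF4 core, in opposite orientations, with first bases at -66 and -47 from the start site, and none to either NRF2 motif. Srxn1 held a TGANTCAGC match at -45 and a TGACNNNGC match at 29. Prdx1 held 1 stretch at -133 that matches both NRF2 motifs, and Osgin1 a TGANTCAGC match at -99. Of the other windows, Gclm and 1 of the 3 of Txnrd1 held a TGACNNNGC match. Nqo1 held no match at all, so Slc7a11 was not alone in lacking both NRF2 motifs. Of 32851 promoter windows in the same set, 12.4% held TGACNNNGC, 1.19% TGANTCAGC and 0.895% TGATGCAA. A match is a string of letters, not a measured binding site, and a window with no match says only that these letters are not in it.

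Slc7a11 encodes the transport subunit of system xc-, which brings cystine into the cell in exchange for glutamate and so feeds glutathione synthesis (chromosome 3, 49892526 to 50443614, minus strand, GRCm38 with GENCODE M21). It rose with silica in both genotypes, 3.40-fold in wildtype and 2.65-fold in knockout at 1 day, and 5.87-fold and 4.37-fold at 3 months. At 9 months it did not pass the test with all mice, and was 4.38-fold and 3.62-fold higher without the 3 air mice that stood apart. Its counts were low, 1 to 218 per library with a median of 19.

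In wildtype lungs at 1 day, Slc7a11 lay at 1.36 to 5.38 normalised CPM with air (median 3.12) and at 8.26 to 13.9 with silica (median 10.4). In knockout lungs it lay at 2.31 to 5.08 with air (median 4.48) and at 6.01 to 15.1 with silica (median 10.4). The lowest silica mouse was above the highest air mouse in both genotypes. The share of all genes whose air and silica ranges separate was not counted, here or below. The log2 fold change was 1.77 ± 0.24 (SE) in wildtype, with an adjusted p of 8.46e-06 by edgeR's quasi-likelihood test with Benjamini-Hochberg adjustment over all genes tested, and 1.41 ± 0.26 in knockout, adjusted p 0.000996. A single model over all 70 libraries kept both sizes (1.76 and 1.41) but not the calls, with edgeR adjusted p of 0.109 and 0.378. That model takes 1 spread for each gene from all times, the 9-month air mice included.

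At 3 months Slc7a11 lay at 0.534 to 3.84 CPM in wildtype air lungs (median 2.73) and at 12.2 to 26.7 in wildtype silica lungs (median 15.6). Knockout lungs had 2.58 to 7.63 with air (median 2.74) and 11.5 to 28.3 with silica (median 17.9). Again no silica mouse fell within the range of its air group. The log2 fold change was 2.55 ± 0.30 in wildtype (edgeR adjusted p 5.62e-07) and 2.13 ± 0.29 in knockout (edgeR adjusted p 1.11e-05). Both calls held with each of the 24 libraries of that time left out in turn, at 2.40 to 2.77 in wildtype and 1.95 to 2.42 in knockout.

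**Figure D1:**
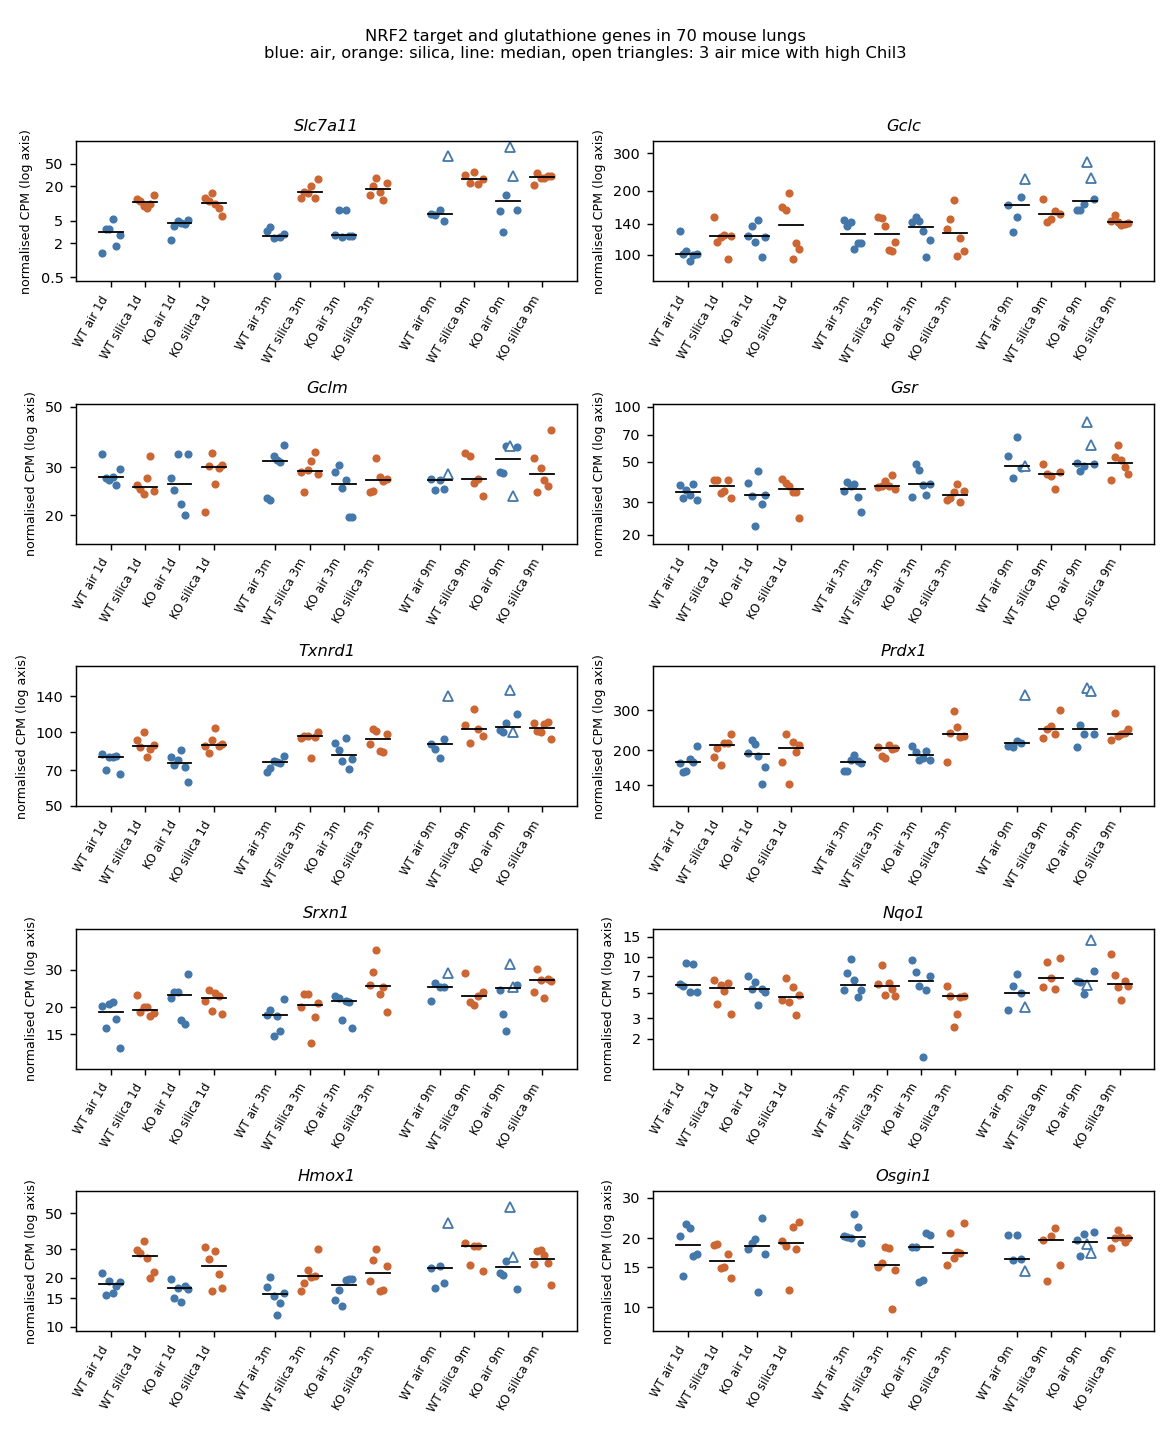
Normalised CPM (log axis) of the 10 genes in each of 70 mice, in panels by gene, with the 12 groups of genotype (WT wildtype, KO Slc26a4 knockout), exposure and time along the x axis. Blue points are air and orange points silica mice, lines are group medians, and open triangles the 3 air mice of 9 months with high Chil3. In the Slc7a11 panel the silica mice lie above all air mice of their genotype at 1 day and 3 months, in both genotypes.

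The other 9 genes moved far less. In wildtype at 1 day, Hmox1 was the second member to pass, so that 2 of 10 members rose and none fell, beside 2.37% of 12558 genes called in that comparison. In knockout at 1 day, 1 of 10 (Slc7a11) rose, beside 1.93% of genes. At 3 months 2 of 10 rose in wildtype (Slc7a11 and Txnrd1), beside 2.96% of 12647 genes, and 2 of 10 in knockout (Slc7a11 and Prdx1), beside 4.8%. An unadjusted edgeR p under 0.05 was reached by 3 members in each genotype at 1 day, beside 1709 genes in wildtype and 1417 in knockout. By 3 months it was reached by 5 members in each, beside 1711 and 2159 genes. Among those 5, Osgin1 was lower with silica in wildtype and Gsr in knockout. The median log2 fold change of the 10 was 0.17 and 0.09 at 1 day and 0.15 and 0.15 at 3 months in wildtype and knockout, where that of all genes tested lay within 0.01 of 0. At 1 day the highest upper end of a 95% interval among the other 9 was 1.79-fold in wildtype and 1.74-fold in knockout, both for Hmox1, and the lower ends for Slc7a11 were 2.45-fold and 1.85-fold. At 3 months the highest upper ends were 1.63-fold (Hmox1, wildtype) and 1.58-fold (Srxn1 and Hmox1, knockout), and the lower ends for Slc7a11 were 3.91-fold and 2.93-fold.

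**Figure D2:**
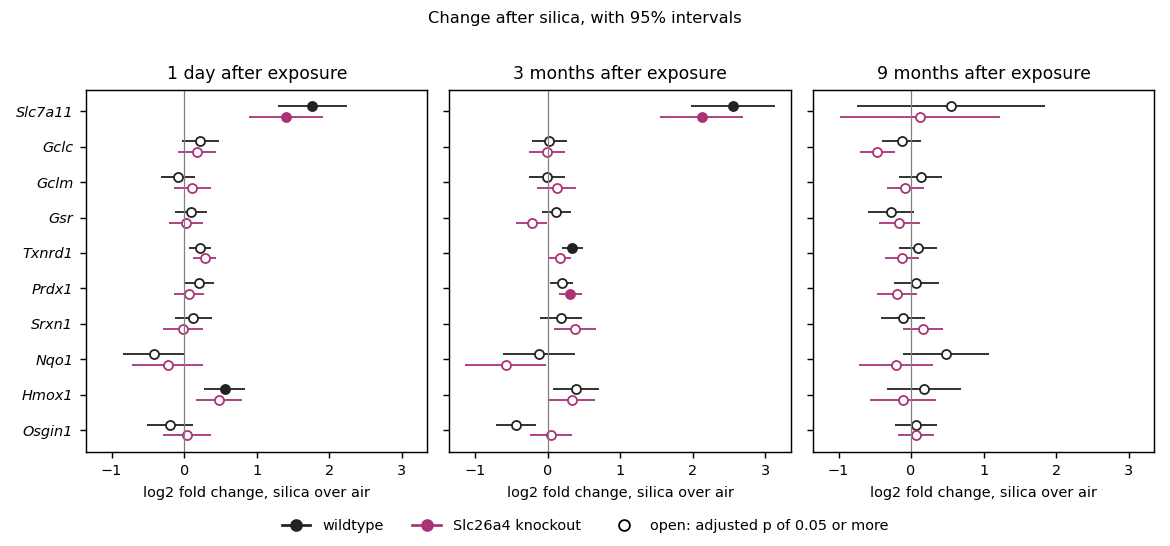
Log2 fold change of silica over air (x axis) for each gene (y axis) in 3 panels by time, in wildtype (black) and Slc26a4 knockout (purple) lungs. Points are edgeR estimates, bars their 95% intervals, and filled points passed an adjusted p of 0.05: Slc7a11 4 times, and Hmox1, Txnrd1 and Prdx1 in 1 comparison each.

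Gclc and Gclm are the catalytic and modifier subunits of glutamate-cysteine ligase, the rate-limiting enzyme of glutathione synthesis, and neither passed the test with silica in any of the 6 comparisons (Gclc on chromosome 9, 77754535 to 77794485, and Gclm on chromosome 3, 122245557 to 122270732, both plus strand). Gclc lay at 93.7 to 129 CPM in wildtype air and 95.1 to 149.8 in wildtype silica lungs at 1 day, and at 106 to 146 against 104 to 150.0 at 3 months. Those ranges overlapped throughout. Its log2 fold change at 1 day was 0.22 ± 0.13 in wildtype and 0.18 ± 0.13 in knockout, and at 3 months 0.02 ± 0.13 and -0.01 ± 0.13. Gclm stayed between 19.7 and 36.2 CPM in all 8 groups of the first 2 times, with log2 fold changes of -0.08 ± 0.12 and 0.11 ± 0.13 at 1 day and -0.01 ± 0.13 and 0.12 ± 0.13 at 3 months. The 95% intervals for Gclc and Gclm at 3 months ran from 0.834-fold to 1.31-fold in both genotypes, so a rise of the size of that of Slc7a11 lay outside them. Exons of Gclm share bases with Gm17494, on the other strand, and with Gm6061, and reads of such bases cannot be assigned with certainty, since the strand setting of the counting is not given in the sources used here.

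Gsr, glutathione reductase, returns oxidised glutathione to its reduced form with NADPH (chromosome 8, 33652523 to 33698163, plus strand). It lay at 30.9 to 38.0 CPM in wildtype air and 31.9 to 39.9 in wildtype silica lungs at 1 day, with a log2 fold change of 0.09 ± 0.11. At 3 months it was 0.12 ± 0.10 in wildtype and -0.22 ± 0.11 in knockout (edgeR adjusted p 0.282). The difference of these, the genotype by silica interaction, was -0.34 ± 0.15 with an unadjusted p of 0.0288 and an adjusted p of 0.598 by edgeR.

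Txnrd1, cytosolic thioredoxin reductase, keeps thioredoxin reduced (chromosome 10, 82833951 to 82897712, plus strand). In wildtype lungs at 3 months it lay at 68.8 to 80.0 CPM with air (median 75.2) and at 78.3 to 100.3 with silica (median 95.9). Of the 6 silica mice, 5 were above every air mouse, and replicate 4, at 78.3, was within the air range. It was 1.27-fold higher (log2 0.34 ± 0.08, edgeR adjusted p 0.00626), the call held with each library left out in turn (0.33 to 0.39), and it stood at 0.17 ± 0.08 in knockout (edgeR adjusted p 0.218). At 1 day it was 0.22 ± 0.08 in wildtype and 0.28 ± 0.08 in knockout, with edgeR adjusted p of 0.171 and 0.0797. In each genotype 5 of 6 silica mice were above all air mice at 1 day.

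Prdx1, a peroxiredoxin that reduces hydrogen peroxide and is itself reduced by thioredoxin, lay at 142 to 374 CPM over all libraries (chromosome 4, 116685544 to 116700822, plus strand). In knockout lungs at 3 months it lay at 180 to 208 CPM with air (median 191) and at 178 to 298 with silica (median 235). There 5 of 6 silica mice were above every air mouse and 1 was below them all. It was 1.24-fold higher (log2 0.31 ± 0.08, edgeR adjusted p 0.0172), but without silica replicate 3 the estimate was 0.23 with an adjusted p of 0.0597. With only the 2 knockout groups in the model it was 0.31 with an adjusted p of 0.0769, and with all 70 libraries 0.31 with 0.153. In wildtype at 3 months it was 0.20 ± 0.08 (edgeR adjusted p 0.237). Knockout silica replicate 3 of that time was the highest of its group in Slc7a11, Hmox1, Gclc, Gclm and Srxn1 too, but not in Txnrd1, Gsr, Osgin1 or Nqo1. Its summed macrophage markers were 1212 CPM, against 747 to 843 in the other mice of its group.

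Srxn1, sulfiredoxin, repairs over-oxidised peroxiredoxins (chromosome 2, 152105516 to 152111376, plus strand). It passed in no comparison. In knockout lungs at 3 months it lay at 15.9 to 22.6 CPM with air (median 21.3) and 19.1 to 37.2 with silica (median 25.1), with 5 of 6 silica mice above all air mice and a log2 fold change of 0.38 ± 0.15 (edgeR adjusted p 0.151). In wildtype at 3 months it was 0.18 ± 0.15, and at 1 day 0.13 ± 0.13 in wildtype and -0.02 ± 0.14 in knockout.

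Hmox1, heme oxygenase 1, breaks heme down to biliverdin, iron and carbon monoxide (chromosome 8, 75093621 to 75100589, plus strand). In wildtype lungs at 1 day it lay at 15.6 to 21.3 CPM with air (median 18.3) and at 19.8 to 33.6 with silica (median 27.4), and 5 of 6 silica mice were above every air mouse. It was 1.47-fold higher (log2 0.56 ± 0.14, edgeR adjusted p 0.0266). Leaving out any 1 of 6 libraries (air replicates 2, 4 or 5, or silica replicates 1, 3 or 4) ended the call, at adjusted p of 0.0545 to 0.0906, as did the model of all 70 libraries at 0.124. In knockout at 1 day it was 0.48 ± 0.16 with an edgeR adjusted p of 0.146, and without knockout silica replicate 3 it was 0.57 with 0.0415. At 3 months it stood at 0.39 ± 0.16 and 0.33 ± 0.17, adjusted p 0.249 and 0.313.

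Nqo1, a quinone reductase and a classic NRF2 target (chromosome 8, 107388225 to 107403206, minus strand), was scarce, at 1.39 to 14.1 CPM over all libraries, and did not pass in any comparison. In wildtype it was -0.42 ± 0.22 at 1 day (edgeR adjusted p 0.390) and -0.12 ± 0.25 at 3 months, and in knockout -0.23 ± 0.25 and -0.58 ± 0.29 (edgeR adjusted p 0.295 at 3 months). All 4 estimates were below 0, but leaving out wildtype air replicate 3 turned the wildtype value at 3 months to 0.01. Osgin1, an oxidant-induced growth inhibitor (chromosome 8, 119434124 to 119446256, plus strand), lay at 19.1 to 25.6 CPM with air and 9.86 to 18.4 with silica in wildtype lungs at 3 months. Those ranges did not overlap, with silica the lower, but the share of all genes with such a gap was not counted. The log2 fold change was -0.43 ± 0.14, with an edgeR adjusted p of 0.0946. In knockout lungs of that time it was 0.05 ± 0.15. The interaction was 0.48 ± 0.20 with an unadjusted p of 0.0232 and an adjusted p of 0.591.

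At 9 months no member passed in either genotype with all mice by edgeR, beside 0.0234% of 12826 genes called in wildtype and 0.179% in knockout. At an unadjusted p under 0.05, none did in wildtype, beside 875 of all 12826 genes, and 1 (Gclc) in knockout, beside 1350. DESeq2's Wald test called none in either genotype, and limma's voom with sample weights called Slc7a11 in both, at 1.86 (adjusted p 0.0419) and 1.66 (adjusted p 0.0139). Wildtype air mice had Slc7a11 at 4.98, 6.31, 6.42, 7.58 and 67.2 CPM, and wildtype silica mice at 22.3, 22.8, 26.4, 31.0 and 36.0. Knockout air mice had 3.09 to 98.0 (median 11.0), and knockout silica mice 20.9 to 34.7 (median 29.4). The high ends of both air groups were mice that stood apart by Chil3, at 67.2, 98.0 and 30.4 CPM of Slc7a11, and the other 8 air mice, at 3.09 to 14.2, lay below all 11 silica mice, at 20.9 to 36.0.

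With all mice the log2 fold change of Slc7a11 at 9 months was 0.55 ± 0.66 in wildtype and 0.12 ± 0.56 in knockout (edgeR adjusted p 0.915 and 0.974). Without the 3 air mice it was 2.13 ± 0.26 and 1.86 ± 0.23 (edgeR adjusted p 3.38e-06 and 5.45e-06). Slc7a11 was then the only member to pass, 1 of 10 in each genotype, beside 1.64% of 12839 genes in wildtype and 1.7% in knockout. Leaving out wildtype air replicate 5 alone gave the wildtype value of 2.13 too, but with an adjusted p of 0.255, and leaving out knockout air replicate 4 alone gave 1.22 in knockout, with 0.319. The other 9 members stayed between -0.31 (Gsr, wildtype) and 0.48 (Hmox1, wildtype) without the 3 mice. Of these, Hmox1 was nearest to passing in wildtype, with an edgeR adjusted p of 0.151. Counted with Slc7a11, 5 members in wildtype (Gsr the only lower) and 3 in knockout (Gclc the only lower) had an unadjusted edgeR p under 0.05. Beside them were 1707 and 1501 of 12839 genes.

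**Figure D3:**
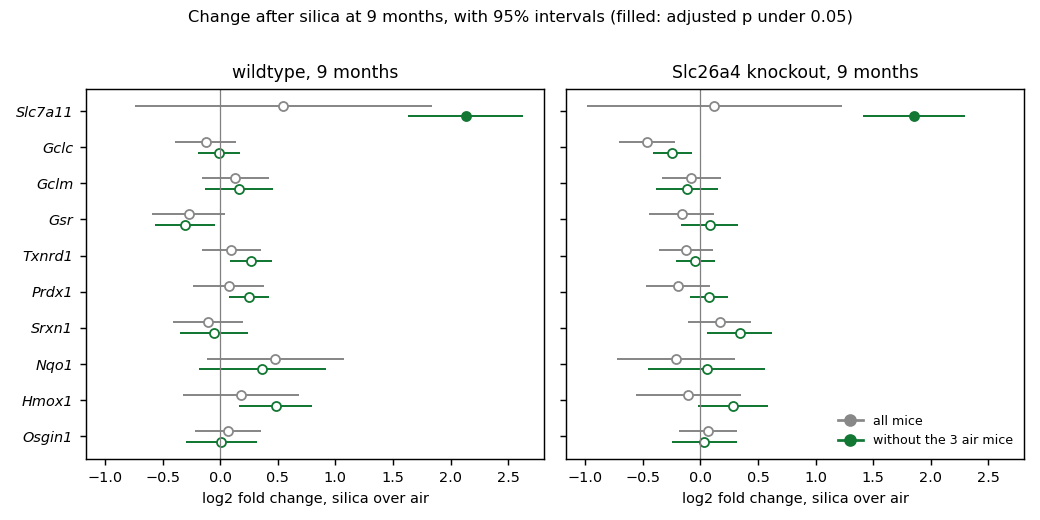
Log2 fold change of silica over air at 9 months (x axis) for each gene (y axis) in wildtype and knockout lungs, from edgeR with all mice (grey) and without the 3 air mice with high Chil3 (green). Bars are 95% intervals and filled points passed an adjusted p of 0.05, which only Slc7a11 did, at 2.13 and 1.86, without those mice.

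The same 3 air mice were also high in other members. Hmox1 was 43.4, 54.4 and 26.8 CPM in them (wildtype replicate 5, knockout replicates 4 and 5), against 17.2 to 25.3 in the other 8 air mice. Prdx1 was 352, 374 and 367 against 206 to 258, and Gclc 226, 273 and 231 against 128 to 186. All 3 were above the other air mice and above the 11 silica mice in Prdx1 and Gclc. Txnrd1 was high in the first 2 only, at 140 and 148 against 78.3 to 118.9, and stood at 100.4 in the other. Srxn1 was 28.9, 31.9 and 25.0 against 15.6 to 25.8, with 2 of the 3 above, and Gsr was 47.1, 82.7 and 61.8 against 40.8 to 68.6, with 1 above. Gclm, at 28.5, 36.0 and 23.6 against 24.7 to 36.0, and Osgin1, at 14.5, 18.9 and 17.3 against 16.1 to 21.3, were not above the other air mice in any of the 3. Nqo1 was high in knockout replicate 5 alone, at 14.1 against 3.57 to 7.69.

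Gclc in knockout lungs at 9 months lay at 161.5 to 273 CPM with air (median 179) and at 137 to 153 with silica (median 142). Those ranges did not overlap, but the share of all genes with such a gap was not counted. The log2 fold change of Gclc was -0.47 ± 0.12, with an unadjusted p of 9.28e-04 and an adjusted p of 0.127 by edgeR. Without knockout air replicates 4 and 5 and wildtype air replicate 5 it was -0.25 ± 0.09, adjusted p 0.190.

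Some macrophage markers rose in the comparisons in which Slc7a11 did. Of 11 markers, 5 rose in wildtype and 6 in knockout at 1 day, and 7 rose and 1 (Siglecf) fell in each genotype at 3 months. The shares of all genes called in wildtype and knockout were 2.37% and 1.93% at 1 day and 2.96% and 4.8% at 3 months. No macrophage marker passed at 9 months with all mice. With the 3 air mice left out, 6 rose in wildtype at 9 months, among them Ctsk (cathepsin K, 5.18-fold) and Lgals3 (galectin 3, 1.64-fold). In knockout 3 rose (Ctsk 3.16-fold, Marco 2.33-fold and Cd68 1.59-fold), and 1.64% and 1.7% of all genes were called. The 3 mice were picked by Chil3, itself a macrophage gene. Ctsk was 320, 294 and 104 CPM in them, against 21.4 to 52 in the other 8 air mice. Lgals3 was 330, 359 and 263 against 94.2 to 154. Leaving them out lowers the air side of these markers, so the 9-month rises are no separate support. The summed level of the 11 markers at 1 day was 468 to 550 CPM in wildtype air against 549.9 to 682 in wildtype silica lungs. In knockout it was 422.5 to 568 against 628.5 to 782. At 3 months it was 459 to 542 against 663 to 908 in wildtype and 493 to 601.5 against 747 to 1212 in knockout. At 9 months it was 718 to 2517 with air and 921 to 1476 with silica in wildtype, and 713 to 2526 and 1018 to 1263 in knockout. No marker was at 0 in any group. Marco, a scavenger receptor of alveolar macrophages, rose 2.18-fold and 3.62-fold at 1 day and 2.85-fold and 3.97-fold at 3 months in wildtype and knockout. The macrophage markers Adgre1 (the F4/80 antigen), Csf1r and Mrc1 passed in no silica comparison. Of 6 tested neutrophil markers, 2 rose in wildtype at 1 day, with sums of 66.7 to 96.7 CPM in air and 102 to 153 in silica lungs. In knockout at 1 day 0 of the 6 passed. Of 7 tested at 3 months, 0 passed in wildtype and 1 rose in knockout, with knockout sums of 89.2 to 128 and 94.4 to 336. Of 5 markers of heart muscle, which lines the mouse pulmonary veins, 4 fell in wildtype at 3 months, with sums of 127 to 392 and 81.7 to 164. No heart muscle marker passed in the other silica comparisons. Some epithelial markers changed as well. Of 6 alveolar type 2 markers, Sftpa1 and Lamp3 rose in all 4 comparisons in which Slc7a11 passed with all mice. Sftpa1 rose 1.23-fold and 1.32-fold at 1 day and 1.30-fold and 1.21-fold at 3 months in wildtype and knockout. Lamp3 rose 1.47-fold, 1.34-fold, 1.30-fold and 1.19-fold in the same order, and Sftpb fell at 3 months (0.851-fold and 0.813-fold). Sftpc, Abca3 and Napsa passed in none of the 4. The median log2 fold change of the 6 lay between -0.07 and 0.10. Of 5 type 1 markers, Pdpn rose in 3 of the 4 (not in knockout at 3 months), and Hopx fell in knockout at 3 months (0.743-fold). The other type 1 markers passed in none of these, and the median log2 fold change of the 5 lay between -0.15 and -0.03. Of 4 club cell markers, Cyp2f2 alone passed, and fell in 3 (not in wildtype at 3 months). Of 5 endothelial markers, Gpihbp1 fell in wildtype (0.728-fold) and Kdr in knockout (0.759-fold) at 3 months. Of 4 fibroblast markers, Col3a1 rose in wildtype at 3 months (1.34-fold). At 9 months without the 3 air mice, markers of other cells passed too. Sftpa1 rose in wildtype (1.32-fold) and knockout (1.19-fold). In wildtype Lamp3 rose (1.62-fold) and Aqp5 (0.727-fold) and Gpihbp1 (0.736-fold) fell, and in knockout Col1a1 rose (1.57-fold). The part of any of these cell types in the changes of the members was not tested. In bulk lung, a change in the number of cells of a type and a change in RNA per cell cannot be told apart.

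**Figure D4:**
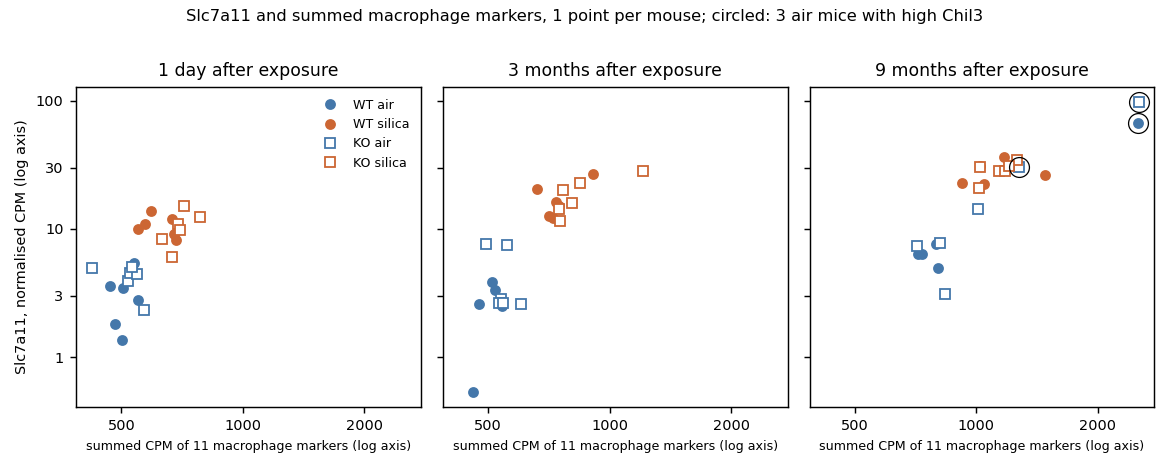
Slc7a11 (y axis, normalised CPM) against the summed CPM of 11 macrophage markers (x axis), both on log axes, 1 point per mouse, in panels by time. Filled circles are wildtype and open squares knockout mice, blue air and orange silica, and circled points the 3 air mice with high Chil3, of which 2 have the highest sums (2517 and 2526 CPM) and the highest Slc7a11 (67.2 and 98.0 CPM) of all 70.

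No member passed a test of genotype with all mice. In the interaction of genotype and silica, 0 of 10 members passed at any of the 3 times by edgeR, beside 0% of all genes each time, and DESeq2 and voom also called no member. At an unadjusted p under 0.05 there were 0, 2 (Gsr and Osgin1) and 0 members, and 716, 970 and 901 genes in all. Without the 3 air mice 0 of 10 passed in the interaction at 9 months, beside 0.00779% of 12839 genes. Txnrd1 (-0.32 ± 0.13) and Gsr (0.39 ± 0.18) then had an unadjusted edgeR p under 0.05, with adjusted p of 0.517 and 0.603, beside 1046 genes. For Slc7a11 the interaction was -0.36 ± 0.37 at 1 day and -0.43 ± 0.45 at 3 months, with 95% intervals from 0.472-fold to 1.29-fold and from 0.403-fold to 1.37-fold. Knockout against wildtype gave 0 of 10 members in air lungs, beside 0.0478% of genes at 1 day, 0.142% at 3 months and 0.0156% at 9 months. It gave 0 of 10 in silica lungs, beside 0.00796%, 0.174% and 0% in the same order, and DESeq2 and voom called no member in these comparisons either. The 9-month counts without the 3 air mice were also 0 of 10, beside 0.0312% in air and 0.00779% in silica lungs. With all mice, none of the 10 had an unadjusted p under 0.05 in the air comparisons, beside 1257, 1370 and 1286 of all genes. Without the 3 air mice Txnrd1 did at 9 months, at 0.31 ± 0.10 (edgeR adjusted p 0.296), beside 1196 of 12839 genes. In silica lungs Srxn1 and Prdx1 did at 3 months, at 0.36 ± 0.15 and 0.26 ± 0.08 (adjusted p 0.370 and 0.233 by edgeR), beside 1297 of 12647 genes under that p. At 1 day and 9 months none did, beside 959 and 512 genes, nor at 9 months without the 3 air mice, beside 780. Without knockout silica replicate 1, Prdx1 passed at 3 months in silica lungs, at 0.33 with an adjusted p of 0.0317.

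The change of Slc7a11 with silica, averaged over genotypes, was not shown to differ between 1 day and 3 months (0.75 ± 0.62, edgeR adjusted p 0.890). No other member passed, 0 of 10 by edgeR, DESeq2 and voom, beside 0.0755% of 13252 genes, and none had an unadjusted p under 0.05, beside 861 genes. The spread in this model is that of all 70 libraries, the 9-month air mice included. Without the 3 air mice the same difference of Slc7a11 was 0.76 (edgeR adjusted p 0.479), and 0 of 10 members passed, beside 17 genes called. Between 3 and 9 months the change of Slc7a11 fell by 2.01 ± 0.50 on the log2 scale (edgeR adjusted p 0.0316), the 1 member of 10 to pass, beside 0.732% of genes. At an unadjusted p under 0.05 there were 4 members (Slc7a11, Gclc, Txnrd1 and Prdx1), beside 1802 of 13252 genes. Without the 3 air mice the difference was -0.36 ± 0.29 with an adjusted p of 0.856, and 0 of 10 members passed, beside 0% of 13305 genes. The call was also lost without wildtype silica replicate 6 of 3 months (-1.93, adjusted p 0.0503), without wildtype air replicate 5 of 9 months (-1.21, 0.301) or without knockout air replicate 4 of 9 months (-1.46, 0.109).

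Other genes of the same pathways were counted in fixed lists of 120 genes, of which 119 are in the table, and those named passed with edgeR adjusted p of 0.000686 to 0.0464. The shares of all genes called in the same comparisons were 2.37% in wildtype and 1.93% in knockout at 1 day and 2.96% and 4.8% at 3 months, and nothing about a list is read from a few calls beside them. Of the 15 tested genes of the thioredoxin and peroxiredoxin list, none passed in any of the 6 silica comparisons. Of 15 glutathione genes other than the members, 1 passed, Gss, glutathione synthetase, which fell in knockout at 3 months (-0.56 ± 0.13). Of 16 glutathione transferases, Gstm1 (-0.42 ± 0.10) and Gstm2 (-0.44 ± 0.10) fell in knockout at 3 months, and their close sequences leave the split of reads between them uncertain. Among 10 NRF2 regulators, Maff, a small MAF partner, rose in knockout at 3 months (0.84 ± 0.24), and Nfe2l2 and Keap1 were not among the called. Of 16 other NRF2 targets, the aldo-keto reductase Akr1b8 rose in wildtype at 1 day (0.54 ± 0.15) and the aldehyde oxidase Aox1 fell in knockout at 3 months (-0.33 ± 0.08).

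Beside the same shares of all genes called, 2.37%, 1.93%, 2.96% and 4.8%, the calls in the other lists were these. Of 14 ATF4 targets, Psat1 (0.70 ± 0.16) and Aldh18a1 (0.58 ± 0.15), which make serine and proline precursors, rose in wildtype at 1 day, and Vldlr, a lipoprotein receptor, fell at 3 months in wildtype (-0.38 ± 0.07) and knockout (-0.27 ± 0.07). Of 3 superoxide dismutases, Sod2, the mitochondrial enzyme, rose in all 4 comparisons of 1 day and 3 months, at 0.47 ± 0.09, 0.43 ± 0.09, 0.33 ± 0.07 and 0.35 ± 0.07. Of 8 heme and ferritin genes, Ftl1, the ferritin light chain, rose (0.47 ± 0.11) and Slc48a1, a heme carrier, fell (-0.27 ± 0.08) in knockout at 3 months, and Ftl1 has pseudogenes that may share its reads. Of 8 NADPH-supplying genes, Idh2 fell in knockout at 3 months (-0.29 ± 0.08). At 9 months no gene of these lists passed in either genotype with all mice. With the 3 air mice left out, Prdx6, a peroxiredoxin, fell in wildtype (-0.46 ± 0.12) and Fth1, the ferritin heavy chain, rose in knockout (0.47 ± 0.10), beside 1.64% and 1.7% of all genes called. The median log2 fold change of each list lay between -0.17 and 0.27 in the 6 comparisons.

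Per kilobase of exon (GENCODE M21), Prdx1 was the most abundant member in wildtype air lungs of 1 day, at 58.6 ± 5.78 CPM per kb (SD, n = 6), followed by Gclc at 27.7 ± 3.27. Gsr (12.5 ± 1.06), Txnrd1 (10.7 ± 0.82) and Hmox1 (10.3 ± 1.19) came next, and Txnrd1 and Hmox1 differed by less than their spread. Osgin1 (7.05 ± 1.35) and Srxn1 (6.44 ± 1.15) did so too, as did Gclm (4.53 ± 0.43) and Nqo1 (4.24 ± 1.18). Slc7a11 was the lowest, at 0.22 ± 0.10, and at 1.23 ± 0.40 in wildtype silica lungs of 3 months it was still below Nqo1 (3.79 ± 0.95). The annotated exons of Slc7a11 sum to 13922 bases, which lowers its value per kilobase where lung uses a shorter transcript.

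Over the 12 group means of log2 CPM, the genes most like Slc7a11 among 12002 were Ccl6, a macrophage chemokine (Pearson r 0.982), Cd83, an activation marker of dendritic cells (0.981), and Ctsk, the protease cathepsin K (0.979). Those most like Hmox1 were Gas2l3 (0.955), Tlr2 (0.950) and Slc31a2 (0.944), and those most like Txnrd1 were Rab32 (0.971), Dbnl (0.969) and F7 (0.969). Prdx1 was most like Bst1 (0.974), Slc15a3 (0.972) and Hprt (0.970), and Gclc like Slc38a1 (0.975), Tmco3 (0.969) and Cd24a (0.955). Gsr went with Gipc2 (0.953), Aig1 and Rfk (both 0.952), Srxn1 with Rpl36al (0.918), Nlrc5 (0.914) and AI662270 (0.909), and Nqo1 with Anapc16 (0.921), Fdx1 (0.852) and Slc25a36 (0.844). For Osgin1 they were Chchd5 (0.900), Letmd1 (0.825) and Vwa8 (0.795), and for Gclm Smim15 (0.807), Ndufa12 (0.804) and Rpain (0.786). The 12 means share libraries and library scaling, 2 of them include the 3 air mice that stood apart, and the means of Gclm span only 0.31 on the log2 scale against 3.17 for Slc7a11, so these values are a description.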

How the data were processed

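Gene counts of 70 lung libraries were used as deposited, in 1 table. Per the labels' protocols, RNA was depleted of ribosomal RNA and made into stranded libraries with 12 PCR cycles. The submitters' processing notes name bcl2fastq 2.19, Trimmomatic 0.35, HISAT2 2.1.0, SAMtools 1.8, HTSeq 0.11.2, Cufflinks and the build mm10. The annotation and the strand setting of the counting are not given in the sources used here. Of 24439 table lines, 19 that repeated a symbol with identical counts were dropped. Lars2 held 8.33% of all counts, and no 2 libraries of a group agreed within sampling noise (lowest chi-square per degree of freedom 1.50).

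edgeR 4.0.16 in R 4.3.3 fitted the 4 groups of each time (filterByExpr, TMM factors, glmQLFit, glmQLFTest, Benjamini-Hochberg over all genes tested, threshold 0.05), and all 12 groups together for differences between times. Intervals are the estimate ± 1.96 SE, with the SE taken from the test's F value, so their 95% is approximate. Some exclude 0 at an unadjusted edgeR p above 0.05, as for Hmox1 in knockout at 3 months (log2 0.003 to 0.659, p 0.0567). The test was also run on simulated counts, drawn independently for each gene. These held no mice that stand apart, so they do not check the 9-month results. Alternatives were other scalings, filters, DESeq2 1.42.0, limma 3.58.1 voom with sample weights, other sets of libraries and each library left out, and, chosen after seeing the data, leaving out 3 air mice of 9 months. Normalised CPM used TMM factors of all 70 libraries. PCR reads carry no molecular identifiers, so copies made by amplification cannot be told from separate molecules. The intervals rest on the spread between libraries, 1 per mouse, which includes that of library preparation. Genes named are the 10 members, up to 3 called genes of each pathway list per genotype and time, and the 3 genes most like each member (mean of at least 5 CPM). The members and the lists were chosen with earlier results of these data known. matplotlib 3.10.9 in Python 3.11.15 drew the figures.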

Additional observations from a re-analysis of the deposited data

Results flagged for a closer look

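In 120 combinations of member and group, 10 held a mouse far from the others of its group by Dixon's gap test, where chance gives about 1 in 20. Of these, 7 were 9-month air mice with high Chil3. Wildtype air replicate 5 had Slc7a11 at 67.2 CPM (next 7.58), Hmox1 at 43.4 (next 23.6), Txnrd1 at 140.4 (next 93.4) and Prdx1 at 352 (next 220). Knockout air replicate 4 had Slc7a11 at 98.0 (next 30.4) and Hmox1 at 54.4 (next 26.8), and knockout air replicate 5 had Nqo1 at 14.1 (next 7.69).

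The other 3 were single genes in mice of earlier times. Gclc was 128.6 CPM in wildtype air replicate 1 at 1 day (next 104.5), Nqo1 was 8.65 in wildtype silica replicate 2 at 3 months (next 6.02), and Txnrd1 was low, at 78.3, in wildtype silica replicate 4 at 3 months (next 94.3). The silica change of Slc7a11 differed between 9 and 3 months by -2.01 on the log2 scale with all mice, as the interaction of silica and time showed, and by -0.36 without the 3 air mice.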

How the results depend on the processing

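The 60 silica results of the 10 members were recomputed in 1840 alternative values, of which 1775 kept direction and side of the threshold, 12 lost the call, 5 gained one and 48 changed sign, none of them past the threshold before or after. No paired analysis was possible because the replicate numbers only name the mice, and the labels pair none. The count of called members in wildtype at 1 day was 2, and 0 in the model of all 70 libraries, and in knockout at 1 day 1 and 0. In knockout at 3 months it was 2, and 1 with the compared groups only and 1 with all 70 libraries. At 9 months it was 0 in each genotype, and 1 with voom weights and 1 without the 3 air mice. The 9 against 3 month difference went from 1 member to 0 with voom weights and 0 without the 3 air mice. Each library left out in turn gave 1 to 2 members in wildtype and 1 to 2 in knockout at 1 day, 1 to 2 in knockout at 3 months, 0 to 1 for knockout against wildtype in silica lungs of 3 months, and 0 to 1 for the 9 against 3 month difference. The cause of these moves was not tested.

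Signs changed with voom weights for Gclc (-0.016), Srxn1 (0.018) and Gsr (-0.031) in knockout at 1 day, Gclm (0.024) in wildtype at 3 months, and Hmox1 (0.16) and Gsr (0.00026) in knockout at 9 months. Without the 3 air mice they changed in knockout at 9 months for Hmox1 (0.28), Nqo1 (0.054), Gsr (0.079) and Prdx1 (0.073). With each library left out, log2 fold changes that changed sign ran, in knockout at 1 day, from -0.088 to 0.062 for Srxn1, -0.026 to 0.10 for Gsr, -0.053 to 0.14 for Osgin1 and -0.0056 to 0.15 for Prdx1. In wildtype at 3 months they ran from -0.29 to 0.014 for Nqo1, -0.027 to 0.073 for Gclc and -0.10 to 0.055 for Gclm. In knockout at 3 months the ranges were -0.15 to 0.066 for Gclc and -0.045 to 0.11 for Osgin1, and in wildtype at 9 months -0.016 to 0.16 for Osgin1. In knockout at 9 months they were -0.12 to 1.22 for Slc7a11, -0.19 to 0.20 for Hmox1 and -0.36 to 0.070 for Nqo1.

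With a median of 19 counts of Slc7a11 and 2183480 counts per library, depth limits what can be seen of small changes in scarce members such as Nqo1. With silica, the genes called over the whole table numbered 298 (206 to 761 over the alternatives) in wildtype and 242 (122 to 283) in knockout at 1 day, 374 (190 to 575) and 607 (lowest 306) at 3 months, and 3 (2 to 211) and 23 (7 to 218) at 9 months. For knockout against wildtype they were 6 (0 to 181), 18 (3 to 113) and 2 (0 to 78) in air lungs and 1 (0 to 7), 22 (2 to 36) and 0 (0 to 1) in silica lungs, in order of time, and for the interaction 0 (0 to 1), 0 (0 to 1) and 0 (0 to 2). Differences of the silica change between times gave 10 (3 to 18) for 3 months against 1 day and 97 (0 to 205) for 9 against 3 months. The counts of called genes in a pathway list, 0 to 2, ran from 0 to 4 over the alternatives.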
